A study of Mus musculus with 13 samples.

Results

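The genes of the tumour necrosis factor (TNF) ligand and receptor superfamilies were followed in mouse bone marrow-derived macrophages that lack or keep the histone deacetylase HDAC3, with and without interleukin-4 (IL-4). Members were chosen by gene name from the array's own annotation: every non-control probe for a gene named Tnfsf or Tnfrsf, together with Tnf, Lta, Ltb, Ltbr, Cd40, Cd40lg, Cd27, Cd70, Fas, Fasl, Eda2r and Ngfr. The rule used no measured value. It gave 62 probes on 134 spots of each array for 43 genes, 17 ligands and 26 receptors, out of 41073 probes with a value on every array. Of the 43, 36 genes (12 ligands and 24 receptors) passed the detection filter and were among the 20546 genes tested.

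The RNA of 4 groups was hybridised to 13 Agilent whole-genome arrays, labelled with a single dye. HDAC3 KO macrophages (LysM Cre+, HDAC3 floxed) were given 10 ng/mL IL-4 on 3 arrays and vehicle, 0.1% bovine serum albumin, on 3 arrays. Control macrophages (HDAC3 floxed, no Cre in the label) were given IL-4 on 3 arrays and vehicle on 4 arrays. All groups carried loxP sites around exons 4 to 7 of Hdac3, and all came from male C57BL/6 mice 12 to 16 weeks old, with 6 days of culture in 30% L929-conditioned medium before a 24 h treatment. Cre was driven by the lysozyme M promoter, which is active in the myeloid lineage, and the control cells are not labelled as carrying it, so Cre itself and the loss of HDAC3 cannot be told apart. Separate animals or cultures are not stated for the arrays of a group. The p-values therefore rest on the spread between arrays, part or all of which may be technical.

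TNF family ligands are mostly trimeric membrane proteins that are shed or presented on the cell surface, and each binds 1 or a few receptors. Receptors with a death domain recruit adaptors that can lead to cell death or NF-kB signalling, receptors without one bind TRAF proteins directly, and decoy receptors bind ligand without signalling. Macrophages are a main source of TNF, and IL-4 is the classical signal for their alternative activation. RANK, the receptor encoded by Tnfrsf11a, drives macrophage precursors toward osteoclasts when its ligand RANKL is present.

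Values below are log2 levels: log2 of the background-corrected spot intensity minus the 75th percentile of that array, so that 0 is the level of a probe at that percentile. A level belongs to its own probe and is compared only between arrays. The Hdac3 probe read lower in the KO groups, with 34.7% of the control level left under IL-4 (adjusted p 0.00376) and 37.6% in vehicle (adjusted p 0.00288), both by limma. All 9 macrophage markers checked (Csf1r, Adgre1 and Cd68 among them) were well above background on all 13 arrays. Of each of the 9 marker sets of other cell types, between 0 and 6 genes were well above background on an array, and the sets that moved with a result are given beside it, as sums of linear levels on which 1 is the array's 75th percentile. Array quality differed: the share of spots well above background ran from 56.2% on control vehicle array 4 to 83.2%, and 61.1% on KO IL-4 array 15 was the next lowest. Each group held 1 position on the slides, and the effects of position and of group cannot be told apart.

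Across the family, HDAC3 loss in vehicle changed 4 of the 36 tested members (11.1%, against 4.76% of all genes tested), at an adjusted p under 0.05 in limma. Tnfrsf1b, Tnfrsf21 and Tnfsfm13 rose and Tnfrsf13b fell. HDAC3 loss under IL-4 changed 2 of 36 (5.56%, against 3.66% of all genes): Tnfrsf1b rose and Tnfrsf13b fell. IL-4 in control cells changed 4 of 36 (11.1%, against 5.78%): Tnfrsf1b and Tnfrsf21 rose, and Tnf and Tnfrsf11a fell. IL-4 in KO cells changed 0 of 36 in limma (against 2.24%), with 7 at an unadjusted p under 0.05, where 12.4% of all genes stood. The difference between the genotypes' responses to IL-4 (the interaction) passed for 0 of 36 members in limma and 0.00487% of all genes, with 1 member, Tnfrsf21, at an unadjusted p under 0.05, against 3.93% of all genes. The median change of the 36 members was -0.07 for HDAC3 loss under IL-4, 0.04 for HDAC3 loss in vehicle, -0.07 for IL-4 in KO cells and 0.08 for IL-4 in control cells, beside all-gene medians of -0.03, 0.02, -0.06 and -0.002. The members had no common direction, and the changes lay in a few receptors, Tnf and Tnfsfm13. Without control vehicle array 4 and KO IL-4 array 15, the 2 with the fewest spots above background, HDAC3 loss changed 1 member under IL-4 (Tnfsf4, which then passed) and 2 in vehicle (Tnfrsf1b and Tnfrsf21). The count for HDAC3 loss under IL-4 was 0 without control IL-4 array 10, control IL-4 array 12 or KO IL-4 array 15, and that in vehicle was 2 without control vehicle array 3, KO vehicle array 5 or KO vehicle array 6.

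**Figure D1:**
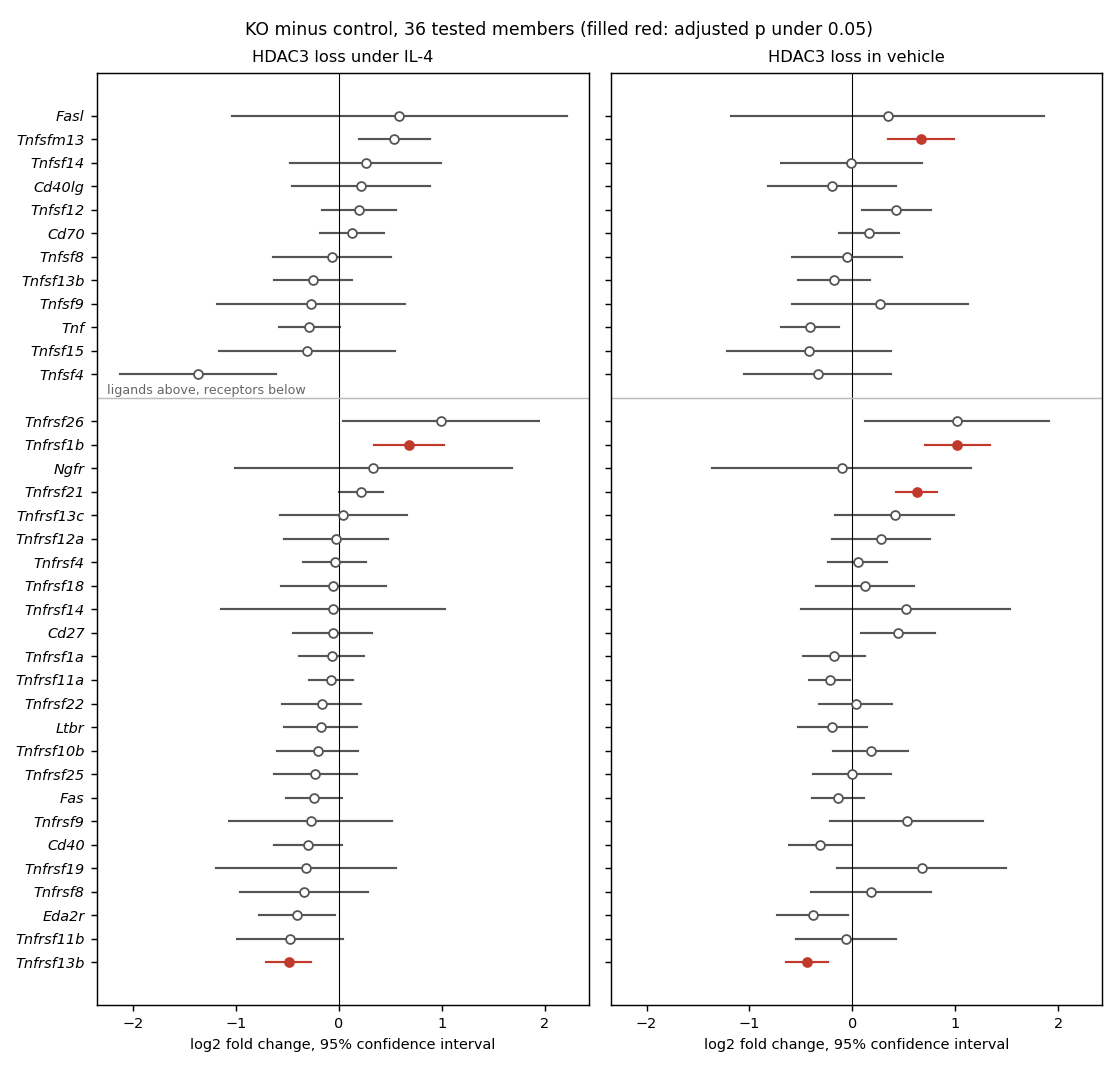
Log2 fold change (x axis) of KO over control for each of the 36 tested members (y axis, ligands above the grey line, receptors below), under IL-4 (left) and in vehicle (right), with 95% confidence intervals from limma. Filled red points passed an adjusted p of 0.05: 2 members under IL-4 and 4 in vehicle, and most others lie near 0 with intervals that include it.

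Sequences for the genes on which the results turn are given here. The array had 2 probes for Tnfrsf1b and 3 for Tnfrsf21 that passed the detection filter, and because they did not change alike, the first 30 of the 60 bases of each are printed 5′ to 3′, as the array's annotation gives them. In mm9, on the minus strand of chromosome 4, the tested Tnfrsf1b probe lies at chr4:144804304-144804363 and the other spans chr4:144812866-144813439. On the plus strand of chromosome 17, the tested Tnfrsf21 probe lies at chr17:43225456-43225513, A_52_P451073 at chr17:43225326-43225385 and A_52_P198998 at chr17:43226341-43226400. No annotation of that build was used, so exon and untranslated region are not assigned.
Tnfrsf1b A_52_P228621 (tested): gcaattgcactgtgtgctggacagaattcc
Tnfrsf1b A_51_P278282: ctggtgaactgcttcatcctggtgcagagg
Tnfrsf21 A_51_P168762 (tested): ctacgaccctgttgatgactgtaactctat
Tnfrsf21 A_52_P451073: atggcatcttgtgactcctagaagtagaca
Tnfrsf21 A_52_P198998: agcctttcctagtctttcggagttaaacct

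RefSeq promoter windows on GRCm38.p6 (250 bases before to 50 after a start) matched 33 of the 43 members, with 37 windows. The stretches for the 4 genes that IL-4 changed in control cells are printed from 250 bases before the start, with the first 10 transcribed bases in capitals. They lie at chr4:145246861-145247120 on the minus strand (Tnfrsf1b), chr17:43016305-43016564 on the plus strand (Tnfrsf21), chr17:35201998-35202257 on the minus strand (Tnf) and chr1:105780473-105780732 on the plus strand (Tnfrsf11a).
Tnfrsf1b: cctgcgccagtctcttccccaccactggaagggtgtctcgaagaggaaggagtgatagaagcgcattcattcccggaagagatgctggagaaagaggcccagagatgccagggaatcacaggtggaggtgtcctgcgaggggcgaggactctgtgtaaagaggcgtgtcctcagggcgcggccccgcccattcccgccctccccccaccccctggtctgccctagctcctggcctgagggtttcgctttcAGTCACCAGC
Tnfrsf21: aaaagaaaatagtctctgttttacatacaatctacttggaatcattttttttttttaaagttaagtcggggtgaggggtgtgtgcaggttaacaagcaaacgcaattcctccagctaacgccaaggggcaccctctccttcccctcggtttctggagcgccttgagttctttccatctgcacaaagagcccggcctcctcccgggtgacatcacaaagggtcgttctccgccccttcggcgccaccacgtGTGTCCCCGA
Tnf: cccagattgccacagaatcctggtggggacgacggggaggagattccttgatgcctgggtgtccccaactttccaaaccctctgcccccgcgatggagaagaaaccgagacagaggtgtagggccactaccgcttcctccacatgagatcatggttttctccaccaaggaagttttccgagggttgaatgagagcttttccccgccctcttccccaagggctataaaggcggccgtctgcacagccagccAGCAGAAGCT
Tnfrsf11a: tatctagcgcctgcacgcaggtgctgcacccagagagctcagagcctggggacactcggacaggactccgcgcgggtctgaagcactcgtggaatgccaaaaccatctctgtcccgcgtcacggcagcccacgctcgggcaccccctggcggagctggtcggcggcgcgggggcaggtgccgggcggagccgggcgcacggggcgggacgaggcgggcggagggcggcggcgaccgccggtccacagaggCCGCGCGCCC

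Both strands of every window were searched for TTC and GAA with any 4 bases between them, the spacing that STAT6, the transcription factor of IL-4 signalling, is known to bind, for GGG, any 2 bases and TTTCC as an NF-kB motif and for TGANTCA as an AP-1 motif. None of the 3 was in the 4 printed stretches. The STAT6 spacing was in 4 of the 37 member windows (10.8%), those of Ltbr, Lta and Tnfsf13b (2 overlapping windows of this gene), against 6.95% of all 32851 windows. The NF-kB motif was in 3 member windows (8.11% against 1.63%), those of Tnfrsf9, Tnfrsf25 and Ltb. The AP-1 motif was in 6 (16.2% against 7.81%). None of the genes with an NF-kB motif passed in any comparison, and Ltb was not tested. These counts describe letters in a window. GC content was 74.6% in the printed Tnfrsf11a stretch, 62.7% in that of Tnfrsf1b, 57.3% in that of Tnf and 51.2% in that of Tnfrsf21, where the median of all windows was 52.3%.

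Among the ligands, Tnf, the founding cytokine of the family, fell under IL-4 in control cells. Its levels were -1.52, -1.50 and -1.37 in control cells with IL-4, against -0.94, -0.83, -0.71 and -0.61 in control cells with vehicle. The groups did not overlap, and the change was -0.69 ± 0.13 (SE, limma adjusted p 0.00692), or 0.621-fold. In KO cells Tnf read -2.02, -1.52 and -1.70 with IL-4, against -1.25, -1.04 and -1.26 with vehicle. These groups did not overlap either, and the change of -0.56 ± 0.14 had an adjusted p of 0.0629 in limma. Without KO IL-4 array 14 the change in KO cells was -0.68 (adjusted p 0.0356), and with the slide pairs described further on as a block it was -0.56 (adjusted p 0.0490, limma). The response of Tnf to IL-4 did not differ detectably between genotypes (difference 0.13, adjusted p 0.9998).

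Between genotypes, every KO array read below every control array for Tnf within each treatment (under IL-4 the nearest arrays both rounded to -1.52), but neither difference passed the test. It was -0.29 ± 0.14 under IL-4 (adjusted p 0.365) and -0.41 ± 0.13 in vehicle (adjusted p 0.114). The Tnf probe was printed on 10 spots of each array, whose mean is the level given, and the SD of single spots within an array was 0.047 to 0.17. The SD between arrays of a group was 0.08 to 0.251.

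The probe named Tnfsf12-tnfsf13 in the file carries the RefSeq symbol Tnfsfm13, a readthrough transcript that joins the TWEAK and APRIL genes, and such a probe cannot tell the joined transcript from those of its neighbours. It read 3.09, 3.37 and 3.01 in KO cells with IL-4, 2.88, 2.68 and 2.29 in control cells with IL-4, 3.19, 3.26 and 3.05 in KO cells with vehicle, and 2.61, 2.63, 2.36 and 2.41 in control cells with vehicle. KO arrays lay above control arrays in both treatments with no overlap. HDAC3 loss raised it by 0.67 ± 0.15 in vehicle (adjusted p 0.0233), and the difference under IL-4 was 0.54 ± 0.16 (adjusted p 0.102). The call in vehicle was lost without any one of control vehicle array 3 (adjusted p 0.0705), control vehicle array 4 (0.068), KO vehicle array 5 (0.105) or KO vehicle array 6 (0.12).

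The separate probe of Tnfsf12 (TWEAK, the ligand of Tnfrsf12a) did not pass in any comparison, with differences of 0.20 under IL-4 and 0.43 in vehicle between KO and control cells (adjusted p 0.194 in vehicle). TWEAK and APRIL have different receptors: TACI, encoded by Tnfrsf13b, binds APRIL and BAFF. BAFF, encoded by Tnfsf13b, averaged -0.78 ± 0.29 in KO cells with IL-4, -0.53 ± 0.18 in control cells with IL-4, -0.66 ± 0.09 in KO cells with vehicle (SD, n = 3 each) and -0.48 ± 0.24 in control cells with vehicle (SD, n = 4), and it did not pass in any comparison.

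OX40 ligand, encoded by Tnfsf4 and a costimulator of T cells, had the largest fitted change among the members over the 4 comparisons, and it was near the detection limit. It read -4.24, -4.58 and -4.55 in KO cells with IL-4, against -2.61, -3.27 and -3.39 in control cells with IL-4. Only 1 of the 3 KO IL-4 arrays was well above background, against all 3 control arrays. The probe passed the detection filter only through control cells with IL-4, the group where it read highest and 1 side of this difference. The difference of -1.37 ± 0.35 had an adjusted p of 0.0556 in limma, and it passed in 6 of 22 alternatives, slide as a block among them (-1.61, adjusted p 0.0186), with adjusted p between 0.0113 (without control vehicle array 4) and 0.184. With normexp background correction and quantile normalization the difference shrank to -0.52 (adjusted p 0.0187, limma). In vehicle the levels were -3.68, -3.28 and -4.08 in KO cells, against -2.93, -3.15, -3.00 and -4.29 in control cells, and the groups overlapped. The other tested ligands, among them Fasl, Cd40lg, Cd70, Tnfsf8, Tnfsf9, Tnfsf14 and Tnfsf15, changed in no comparison. Lta, Ltb, Tnfsf10 (TRAIL), Tnfsf11 (RANKL) and Tnfsf18 were not well above background on every array of any group, and Tnfsf10 was so on 1 array.

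**Figure D2:**
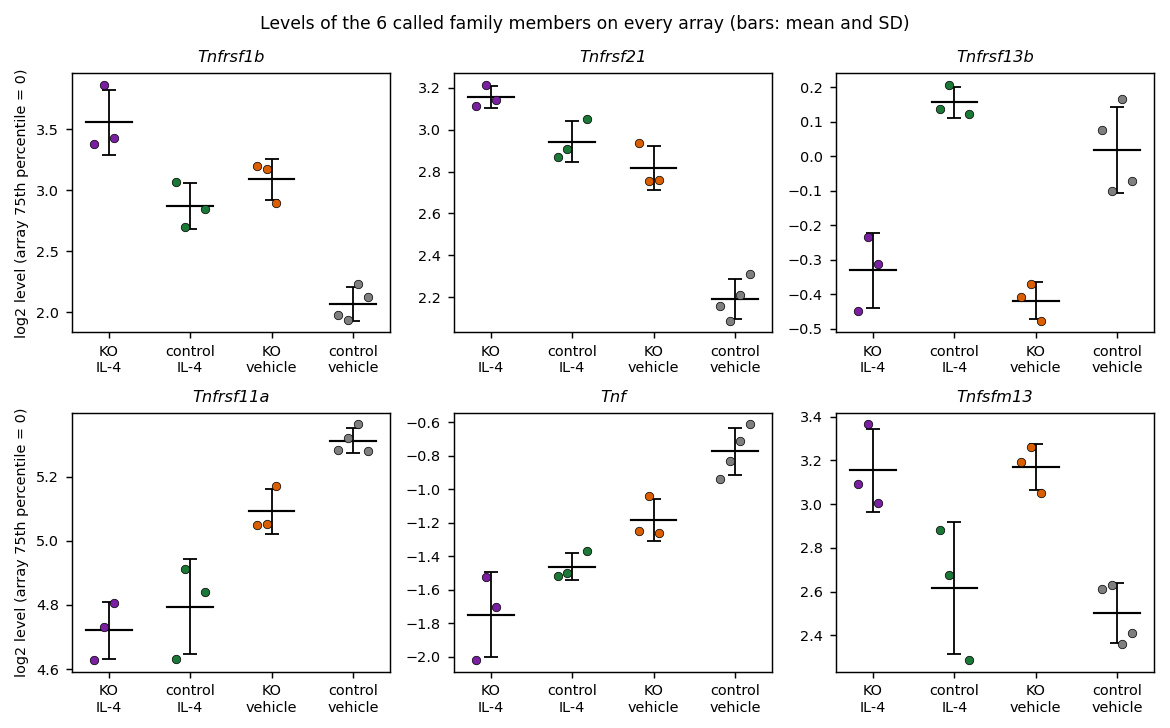
Log2 level (y axis, 0 is the array's 75th percentile) of the 6 members that changed in at least 1 comparison, with 1 point per array and bars at the group mean and SD. Tnfrsf1b and Tnfrsf21 are lowest in control cells with vehicle, Tnf and Tnfrsf11a are lower with IL-4, and Tnfrsf13b and Tnfsfm13 separate KO from control arrays in both treatments.

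Among the receptors, Tnfrsf1b, which encodes TNF receptor 2, changed in 3 of the 4 comparisons of 2 groups. It read 3.38, 3.86 and 3.42 in KO cells with IL-4, against 3.07, 2.69 and 2.84 in control cells with IL-4. In vehicle it read 3.19, 3.18 and 2.90 in KO cells, against 1.98, 1.93, 2.23 and 2.13 in control cells. Control cells with vehicle were the lowest group and KO cells with IL-4 the highest, and the KO vehicle and control IL-4 groups overlapped.

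HDAC3 loss raised Tnfrsf1b by 1.02 ± 0.15 in vehicle, which is 2.03-fold (adjusted p 0.00171). It raised it by 0.69 ± 0.16 under IL-4 (1.61-fold, adjusted p 0.0319). The call in vehicle held in all 23 alternatives, while that under IL-4 was lost in 12 of 23, among them without KO IL-4 array 14 (0.53, adjusted p 0.0983), KO IL-4 array 15 (0.0539), control IL-4 array 10 (0.129), control IL-4 array 12 (0.11), KO vehicle array 5 (0.0515) or control vehicle array 4 (0.0505). With slide as a block the difference under IL-4 was 0.72 (adjusted p 0.102). IL-4 raised it by 0.80 ± 0.15 in control cells (1.74-fold, adjusted p 0.00598). In KO cells the change was 0.47 ± 0.16 (adjusted p 0.197), and the difference between the genotypes' responses was not detected (adjusted p 0.9998). On single slides the KO minus control difference was 0.31 and 1.17 under IL-4, and 1.22, 1.24 and 0.67 in vehicle. The 4 NK cell markers summed to 0.657 to 0.873 in KO cells with IL-4, 0.488 to 0.677 in control cells with IL-4, 0.761 to 0.971 in KO cells with vehicle and 0.596 to 0.682 in control cells with vehicle. Klrb1c, well above background on 5 of 13 arrays, and Eomes averaged higher in KO cells in both treatments. The other markers did not move alike. Ncr1 averaged -1.54 in KO and -1.37 in control cells with IL-4, but -1.13 and -1.22 with vehicle. Gzma, well above background on 2 arrays, averaged -5.22 in KO and -4.82 in control cells with vehicle, but -4.11 and -5.15 with IL-4. The part of these markers in the result was not tested. In these bulk samples a different number of cells of a type and a different amount of RNA per cell cannot be told apart.

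The other Tnfrsf1b probe gave smaller or less certain differences. It read 0.86 ± 0.39 for HDAC3 loss under IL-4, 0.61 ± 0.37 for HDAC3 loss in vehicle, 0.29 ± 0.39 for IL-4 in KO cells and 0.03 ± 0.37 for IL-4 in control cells, and none of these passed. Its arrays of slide 1 stood low in the control groups, at -2.13 in IL-4 and -1.90 in vehicle, where the other control arrays lay between -1.18 and -0.61. With probes averaged per gene, the IL-4 change in control cells was 0.42 (adjusted p 0.326), so that the increase of Tnfrsf1b with IL-4 rests on the tested probe.

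The partner receptor Tnfrsf1a, which encodes the ubiquitous, death domain-bearing TNF receptor 1, showed no such pattern. It read 2.57, 3.00 and 2.70 in KO cells with IL-4, 3.14, 2.71 and 2.64 in control cells with IL-4, 2.75, 2.89 and 2.76 in KO cells with vehicle, and 3.08, 2.97, 2.93 and 2.92 in control cells with vehicle. The groups differed by no more than 0.18 on the log2 scale for HDAC3 loss, with a 95% interval of -0.48 to 0.12 in vehicle.

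Tnfrsf21, death receptor 6, read 3.11, 3.21 and 3.14 in KO cells with IL-4 and 2.87, 2.91 and 3.05 in control cells with IL-4. With vehicle it read 2.94, 2.76 and 2.76 in KO cells and 2.16, 2.09, 2.21 and 2.31 in control cells. As with Tnfrsf1b, control cells with vehicle were the lowest group, and they overlapped with none of the other 3. HDAC3 loss raised it by 0.62 ± 0.09 in vehicle (1.54-fold, adjusted p 0.00193). Under IL-4 the difference was 0.21 ± 0.10 (adjusted p 0.335). IL-4 raised it by 0.75 ± 0.09 in control cells (1.68-fold, adjusted p 0.000389), and the change in KO cells was 0.34 ± 0.10 (adjusted p 0.119). The response to IL-4 was lower in KO than in control cells by 0.41 ± 0.13, with an unadjusted p of 0.00973 and an adjusted p of 0.9998, so the difference between the responses did not pass. Both calls for Tnfrsf21 held in every alternative run, 23 for HDAC3 loss in vehicle and 24 for IL-4 in control cells.

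A second Tnfrsf21 probe, whose position lies beside that of the tested one, gave nearly the same differences: 0.22 for HDAC3 loss under IL-4, 0.67 for HDAC3 loss in vehicle, 0.28 for IL-4 in KO cells and 0.73 for IL-4 in control cells. The third, further along the plus strand, gave 0.14, 0.30, -0.09 and 0.08 for the same comparisons, none of which passed. The 3 probes therefore did not agree on the size of the change, or on whether there was one with IL-4.

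**Figure D3:**
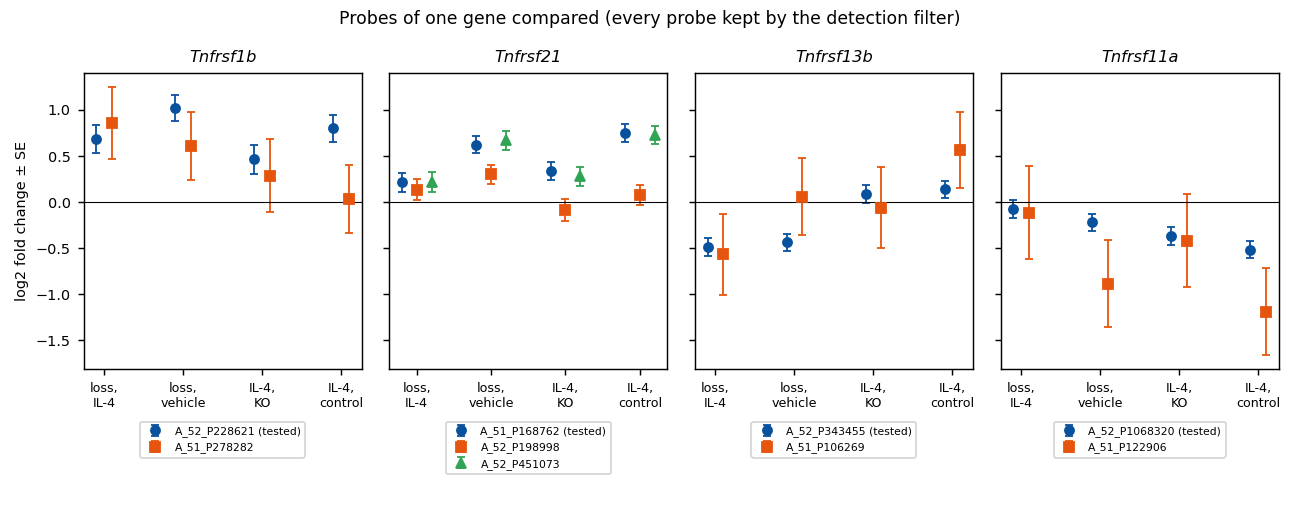
Log2 fold change with its SE (y axis) for each probe that passed the detection filter, in the 4 comparisons (x axis: loss of HDAC3 with and without IL-4, then the IL-4 response of KO and of control cells), for the 4 called receptors. Circles are the tested probes, and the Tnfrsf1b and Tnfrsf21 probes agree for HDAC3 loss in vehicle in direction but not for IL-4 in control cells in size.

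Tnfrsf11a, which encodes RANK, read 4.63, 4.91 and 4.84 in control cells with IL-4, against 5.28, 5.32, 5.36 and 5.28 in control cells with vehicle. It fell with IL-4 by 0.52 ± 0.09 on the log2 scale, to 0.699-fold, with an adjusted p of 0.00496. In KO cells it read 4.63, 4.73 and 4.80 with IL-4, against 5.05, 5.05 and 5.17 with vehicle, with a change of -0.37 ± 0.10 (adjusted p 0.0882). Within both genotypes the IL-4 and vehicle arrays did not overlap. The second probe, near background, gave -1.19 ± 0.47 for IL-4 in control cells, and control vehicle array 4 stood at -0.87 where the other arrays lay between -4.10 and -2.56. HDAC3 loss gave differences of -0.07 under IL-4 and -0.22 in vehicle, neither of which passed.

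The summed level of the 6 osteoclast markers was higher with IL-4, largely through Dcstamp and Ocstamp. Acp5 and Ctsk also averaged higher with IL-4 in both genotypes, while Calcr and Oscar moved in opposite directions in the genotypes. Calcr averaged -2.10 with IL-4 and -1.84 with vehicle in control cells, but -1.45 and -1.76 in KO cells. Oscar averaged -2.52 with IL-4 and -2.13 with vehicle in KO cells, but -2.42 and -2.48 in control cells. The sum was 3.06 to 4.27 in KO cells with IL-4, 2.53 to 3.86 in control cells with IL-4, 1.90 to 2.75 in KO cells with vehicle and 1.52 to 2.10 in control cells with vehicle. All 6 were on the array, between 5 and 6 were well above background on IL-4 arrays and between 3 and 6 on vehicle arrays. Their part in the change of Tnfrsf11a was not tested.

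Tnfrsf13b, which encodes TACI, a receptor known best from B cells, was lower in KO cells. It read -0.45, -0.23 and -0.31 in KO cells with IL-4, against 0.14, 0.21 and 0.12 in control cells with IL-4. In vehicle it read -0.41, -0.37 and -0.48 in KO cells, against 0.08, -0.10, 0.17 and -0.07 in control cells. No KO array reached a control array, and the tested probe was well above background on all 13 arrays. It fell by 0.49 ± 0.10 under IL-4 (adjusted p 0.0186) and by 0.44 ± 0.09 in vehicle (adjusted p 0.0198). Its change with IL-4 passed in neither genotype (0.09 in KO and 0.14 in control cells).

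The direction held in all 23 alternatives for both Tnfrsf13b differences, but each call was lost in 9 of them. Under IL-4 it was lost without control IL-4 array 10 (adjusted p 0.0765), control IL-4 array 12 (0.06), KO IL-4 array 13 (0.0615) or KO IL-4 array 15 (0.0539). In vehicle it was lost without control vehicle array 1 (0.061), control vehicle array 3 (0.0614), or any one of KO vehicle arrays 5 (0.0877), 6 (0.0672) and 7 (0.0766). With slide as a block neither call passed (-0.53, adjusted p 0.0553, under IL-4 and -0.46, adjusted p 0.0525, in vehicle). The second probe, well above background on 8 arrays, gave -0.57 ± 0.44 under IL-4 and 0.06 ± 0.42 in vehicle. The summed B cell markers, 6 of 6 on the array, ran from 1.15 to 1.31 in KO cells with IL-4, 1.23 to 1.36 in control cells with IL-4, 1.07 to 1.40 in KO cells with vehicle and 1.14 to 1.56 in control cells with vehicle. These ranges overlap within each treatment.

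Eda2r, the receptor for the A2 form of ectodysplasin, was chosen for description after its values were seen. It read 0.50, 0.05 and 0.06 in KO cells with IL-4, 0.61, 0.51 and 0.70 in control cells with IL-4, -0.13, -0.29 and -0.66 in KO cells with vehicle, and 0.27, -0.17, -0.02 and 0.01 in control cells with vehicle. IL-4 arrays lay above vehicle arrays in each genotype. The change with IL-4 was 0.56 ± 0.17 in KO cells (adjusted p 0.138) and 0.58 ± 0.16 in control cells (adjusted p 0.0552). In control cells it passed in 9 of 24 alternatives. A second Eda2r probe, well above background on 9 arrays, gave -0.44 ± 0.31 for IL-4 in KO cells and -0.05 ± 0.29 in control cells, which do not share the direction of the tested probe.

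**Figure D4:**
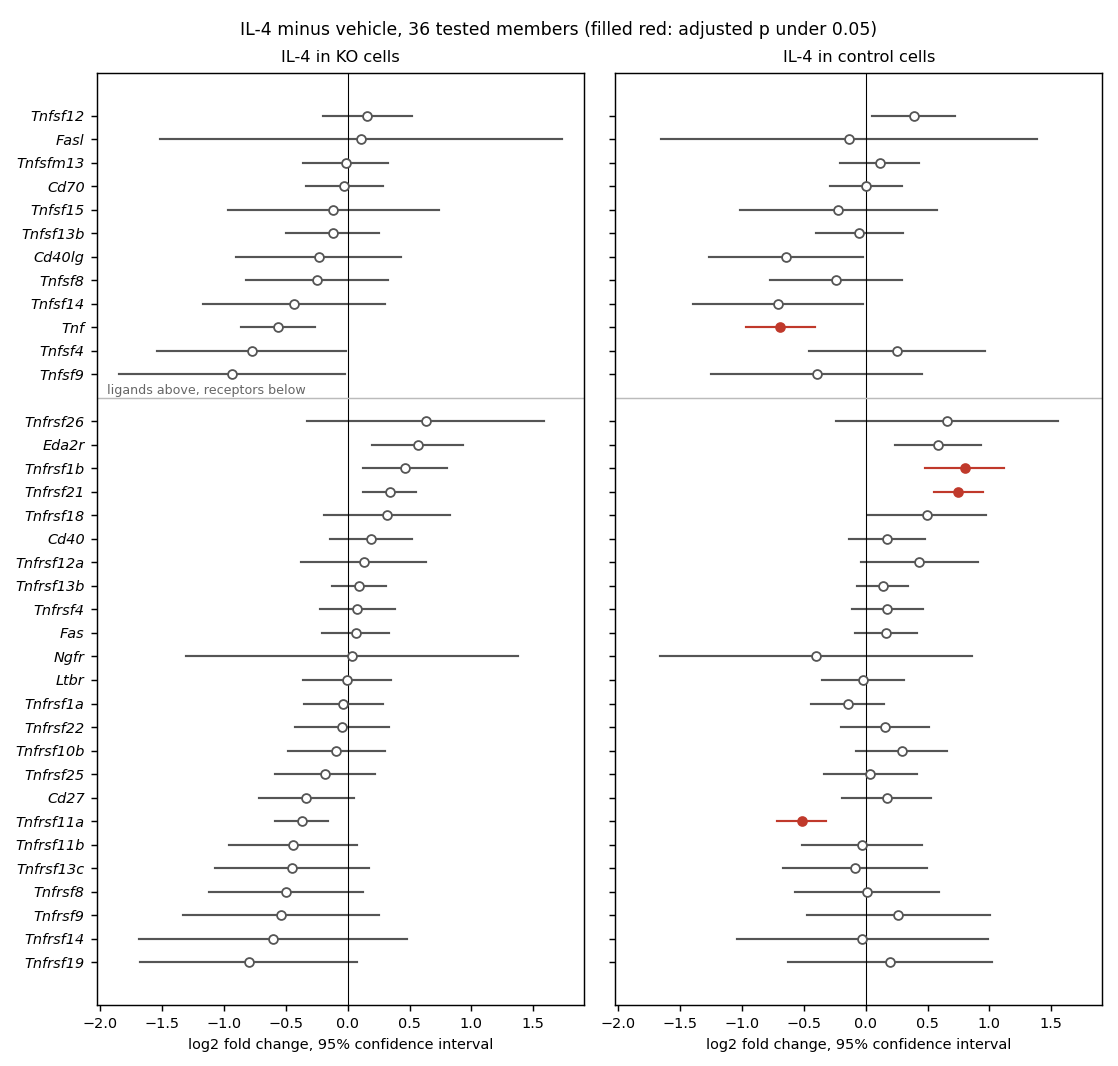
Log2 fold change (x axis) of IL-4 over vehicle for each of the 36 tested members (y axis, ligands above the grey line, receptors below), in KO cells (left) and control cells (right), with 95% confidence intervals from limma. Filled red points passed an adjusted p of 0.05: none in KO cells, and Tnfrsf1b, Tnfrsf21, Tnf and Tnfrsf11a in control cells.

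Arrays of one genotype on the same slide resembled each other. Over all genes tested, the deviations from the group means of the IL-4 and vehicle arrays on 1 slide correlated at 0.238 to 0.504 in the 6 same-slide pairs, against -0.385 to 0.144 in pairs from different slides. Deviations from a group mean cancel within the group, so positive same-slide pairs make the other pairs negative on average by construction. A correlation across genes is not one over independent replicates, and the labels do not say what a slide pairs. A fit that compares IL-4 with vehicle within genotype and slide, added after the data were seen, called 2 of 36 members in KO cells (5.56%, against 2.17% of all genes) and 6 of 36 in control cells (16.7%, against 5.15%).

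This within-slide fit changed the call for Tnf in KO cells, given above, for Eda2r in control cells (0.57 ± 0.12, adjusted p 0.0479, limma) and for Tnfrsf26 in both genotypes. Tnfrsf26, a less studied mouse homologue of the TNF receptors, read 2.27, 3.33 and 2.66 in KO cells with IL-4, against 1.60, 2.73 and 2.03 in KO cells with vehicle, in the order of slides 1, 2 and 3. In control cells it read 2.18, 1.03 and 2.07 with IL-4 on slides 1, 2 and 4, against 1.41, 0.19, 1.55 and 1.25 with vehicle on slides 1 to 4. The differences on single slides were 0.66, 0.60 and 0.62 in KO cells and 0.76, 0.84 and 0.82 in control cells.

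Without the slide pairs, the change of Tnfrsf26 with IL-4 was 0.63 ± 0.44 in KO cells (adjusted p 0.610) and 0.66 ± 0.41 in control cells (adjusted p 0.548). With them it was 0.63 ± 0.08 in KO cells (adjusted p 0.0155) and 0.81 ± 0.08 in control cells (adjusted p 0.00325, both limma). The difference between KO and control cells rested on slide 2: it was 2.30 on slide 2 and 0.09 on slide 1 under IL-4, and 2.54 on slide 2, 0.19 on slide 1 and 0.48 on slide 3 in vehicle. Over all arrays it was 0.99 ± 0.44 under IL-4 (adjusted p 0.312) and 1.02 ± 0.41 in vehicle (adjusted p 0.267), and it passed in none of the 23 alternatives.

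**Figure D5:**
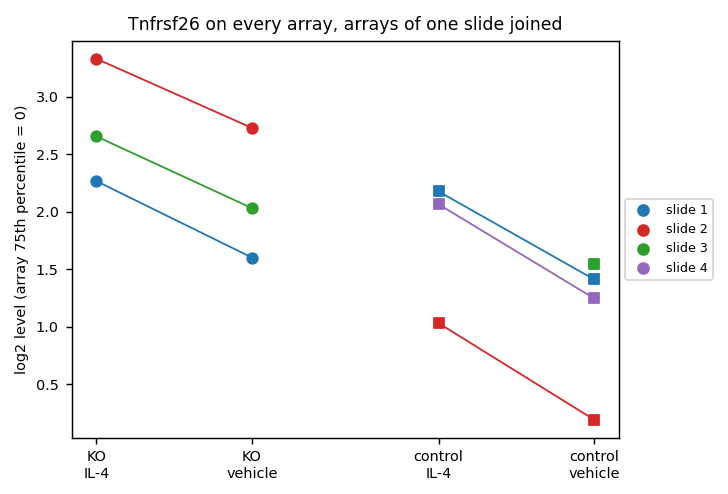
Log2 level of Tnfrsf26 (y axis, 0 is the array's 75th percentile) on all 13 arrays, with lines joining the IL-4 and vehicle arrays of one genotype on one slide. All 6 lines run in parallel, with IL-4 higher by 0.60 to 0.84, and slide 2 is the highest for KO and the lowest for control cells.

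The remaining tested receptors passed in no comparison, which does not show that they were unchanged. Some intervals were wide, such as -1.36 to 1.16 for Ngfr with HDAC3 loss in vehicle. They include Fas, Tnfrsf10b, Tnfrsf25 and Ngfr of the death domain group, Ltbr, Cd40, Cd27, Tnfrsf4, Tnfrsf8, Tnfrsf9, Tnfrsf12a, Tnfrsf13c, Tnfrsf14, Tnfrsf18 and Tnfrsf19 of the TRAF-binding group, and the decoys Tnfrsf11b and Tnfrsf22. Cd40, the receptor for CD40 ligand, differed by -0.30 under IL-4 and -0.31 in vehicle between KO and control cells (adjusted p 0.400 and 0.355). Tnfrsf17 and Tnfrsf23 did not pass the detection filter. Of the 36 tested members, 22 were well above background on all 13 arrays. Counted by arrays instead of tests, KO and control groups did not overlap for 25.0% of tested members under IL-4 and 27.8% in vehicle, against 17.8% and 16.9% of all genes. IL-4 and vehicle groups did not overlap for 25.0% of members in KO cells and 16.7% in control cells, against 18.6% and 16.7% of all genes. Some members counted here passed the detection filter only through the higher group of the comparison. These were Tnfsf4 for HDAC3 loss under IL-4, and Tnfsf9 and Tnfrsf19 for IL-4 in KO cells, so their separation is not independent of the filter.

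Downstream of the receptors, 31 adaptors and effectors were tested from a list. HDAC3 loss lowered 1 and raised 0 of them under IL-4, and lowered 2 and raised 1 in vehicle. Traf1, an NF-kB-inducible adaptor that binds TNF receptor 2, averaged -0.45 ± 0.23 in KO cells with IL-4, 0.41 ± 0.15 in control cells with IL-4, -0.15 ± 0.15 in KO cells with vehicle (SD, n = 3 each) and 1.09 ± 0.16 in control cells with vehicle (SD, n = 4). It fell with HDAC3 loss by 0.85 ± 0.15 under IL-4 (adjusted p 0.00752) and by 1.24 ± 0.14 in vehicle (adjusted p 0.000377), while Tnfrsf1b, the receptor, rose. Tank, a TRAF-binding regulator, fell by 0.52 in vehicle, and Ikbkg, the NEMO subunit of the IkB kinase, rose by 0.49.

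IL-4 raised Traf5, an adaptor for several TRAF-binding receptors, by 1.40 ± 0.24 in KO cells (adjusted p 0.00823) and by 1.74 ± 0.22 in control cells (adjusted p 0.000529). In KO cells it was 1 of 31 listed genes to change. In control cells 3 rose and 2 fell: Traf5, Ripk3, the necroptosis kinase (1.07), and Ikbkg (0.44) rose, while Traf1 (-0.68) and Xiap, an inhibitor of caspases (-0.43), fell. The shares called were 3.23% for HDAC3 loss under IL-4, 9.68% for HDAC3 loss in vehicle, 3.23% for IL-4 in KO cells and 16.1% for IL-4 in control cells, against 3.66%, 4.76%, 2.24% and 5.78% of all genes in the same comparisons.

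Of 12 feedback and deubiquitination genes, HDAC3 loss changed Tnip3, an A20-binding inhibitor, which fell by 0.73 under IL-4 (adjusted p 0.0125) and by 0.97 in vehicle (adjusted p 0.00111), and IL-4 changed none in limma, with 1 at an unadjusted p under 0.05 in KO and 2 in control cells, where 12.4% and 14.6% of all genes stood. The 1 gene called is 8.33% of the list in each HDAC3 comparison, against 3.66% of all genes under IL-4 and 4.76% in vehicle. Of 9 shedding and processing genes tested, Furin, a protease that processes several ligands of the family, rose by 0.34 with HDAC3 loss in vehicle (adjusted p 0.0371) and by 0.42 with IL-4 in control cells (adjusted p 0.00847). Rhbdf2, which escorts the TNF sheddase ADAM17, rose by 0.37 with IL-4 in control cells. Adam17 itself passed in no comparison. The list's shares called were 11.1% for HDAC3 loss in vehicle and 22.2% for IL-4 in control cells, against 4.76% and 5.78% of all genes, and none of the list passed in limma for HDAC3 loss under IL-4 (0 at an unadjusted p under 0.05) or for IL-4 in KO cells (2 at an unadjusted p under 0.05).

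Of 22 tested genes known to be induced by TNF, HDAC3 loss raised 3 and lowered 2 under IL-4 (22.7% called, against 3.66% of all genes) and raised 4 and lowered 5 in vehicle (40.9%, against 4.76%). Ccl2, a monocyte chemokine, rose by 3.24 under IL-4 and 3.42 in vehicle, and Bcl2a1b, a survival gene, by 1.02 and 1.68. Ccl5, a T cell chemokine, changed by -2.37 under IL-4 and by -2.515 in vehicle. Tnfaip2 rose by 1.47 under IL-4 and by 0.85 in vehicle (adjusted p 0.0158 in vehicle, limma), and Traf1 fell as above. In KO cells IL-4 raised Ier3 (1.23) and Bcl2a1b (0.61) and lowered Cxcl2 (-0.84), which is 13.6% of the list, against 2.24% of all genes. In control cells it raised Ier3 (2.14) and Bcl2a1b (1.28) and lowered 4 genes, among them Il1b (-2.36) and Cxcl2 (-0.90), which is 27.3%, against 5.78%.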

How the data were processed

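The deposited scanner files give linear-scale spot intensity from a single Cy3 channel, extracted by Agilent Feature Extraction 10.5.1.1 with mm9 probe coordinates, per the file headers. Version 9.53 of that program, and limma with no version, are named in the submitters' processing notes. Per the labels' protocols, a NuGEN kit amplified and labelled the RNA. A deposited value table of 39280 rows, with intensity values that look quantile normalized by a method not stated here, served as an alternative.

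Spots for controls or flagged as outliers were dropped, repeat spots of a probe were averaged, and 101 of 41174 probes were lost. Levels are log2 of the deposited processed intensity less the 75th percentile of the array. The filter kept the 29059 probes that were well above background throughout at least 1 group, and the brightest probe stood for its gene. RefSeq accessions or symbols named the probes where they matched, and 8084 probes kept the name in the file. A single limma 3.58.1 fit (R 4.3.3) of the 4 group means over all 13 arrays gave two-sided moderated tests, adjusted by Benjamini-Hochberg over 20546 genes, and a gene was called at an adjusted p below 0.05. The fit was tested on simulated data. Intervals are at 95%. How many arrays there are, and how far a signal lies above background, set the precision.

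The members and lists were chosen with earlier results of these data known. Named were every member called in any comparison, TNF and its receptors, partners of called members and up to 4 called genes per list and comparison by smallest adjusted p. Any others named were chosen after their values were seen. Groups share no replicate numbers. Slides 1 to 4 group the arrays as the barcodes in the file headers do. IL-4 and vehicle arrays of one genotype on one slide deviated together in all 6 pairs (r 0.238 to 0.504), so a within-slide fit was added after the data were seen. Alternatives were other background corrections, scalings, filters and probe rules, slide as a block, compared groups alone and leaving out arrays. The comparisons share arrays with each other.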

Additional observations from a re-analysis of the deposited data

Results flagged for a closer look

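Dixon's test at the 95% level was applied to the 4 control vehicle arrays for 38 quantities, and chance flags about 1 in 20. It singled out Tnfsf4 on control vehicle array 4, at -4.29 on the log2 scale, where the probe was not well above background and the other 3 arrays read -2.93, -3.15 and -3.00. It also singled out the negative controls of that array, whose mean intensity was 131.3, against 56.2 to 81.8 on the other 12 arrays. A probe for Tnfrsf9 that was outside the comparisons, A_52_P210511, read -0.88 on KO vehicle array 6, and it was not well above background on any other array.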

How the results depend on the processing

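No call reversed its direction. The 2 calls for Tnfrsf21 and that for Tnfrsf1b with HDAC3 loss in vehicle passed under every alternative run. HDAC3 loss in vehicle called 4 members, and 2 with median scaling, 2 without control vehicle 4 and KO IL-4 15 together (chosen after seeing the data), and 2 to 4 with single arrays left out. HDAC3 loss under IL-4 called 2, and 0 with median scaling, with probes averaged or with the compared groups alone, 1 with no detection filter (Tnfrsf13b), 1 with slide as a block or without both low arrays (Tnfsf4 in each, with Tnfrsf1b and Tnfrsf13b lost), and 0 to 2 with single arrays left out. IL-4 in KO cells called 0, and 1 with normexp or with detection required on all arrays, 2 with the genotype-by-slide block, and 0 to 1 with single arrays left out. IL-4 in control cells called 4, and 2 with median scaling or with probes averaged, and 4 to 5 with single arrays left out. The interaction called 0 throughout. Averaging over probes brings in dimmer ones by its construction, and leaving out arrays leaves fewer samples. The cause was not tested for the other changes.

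With median scaling, Tnf and Tnfrsf11a with IL-4 in control cells had adjusted p of 0.0796 and 0.0533. Over all genes, HDAC3 loss in vehicle called 979, and 529 with median scaling, 595 without both low arrays, 650 without control vehicle 3, 449 without KO vehicle 5 and 456 without KO vehicle 6. HDAC3 loss under IL-4 called 753, and 426 with median scaling, 134 with the compared groups alone, 447 without both low arrays, 470 without control IL-4 10 and 445 without control IL-4 12. IL-4 in KO cells called 461, and 811 with normexp, 293 with median scaling (184 higher and 109 lower, against 232 and 229), 127 with the compared groups alone, 263 without both low arrays, and 304, 300 and 254 without KO vehicle 5, 6 and 7. IL-4 in control cells called 1187, and 708 with median scaling and 767 without control IL-4 12. The interaction called 1, and 0 to 8 elsewhere.

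The groups share no replicate numbers. The paired fit was that of IL-4 against vehicle within genotype and slide, given above. With slide as a block every called member kept its direction, but Tnfrsf13b lost its call in both HDAC3 comparisons (adjusted p 0.0525 in vehicle and 0.0553 under IL-4) and Tnfrsf1b lost its call under IL-4 (0.102).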
